A study of Mus musculus with 6 samples.

Results

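The genes described here code for the voltage-gated sodium and calcium channels of the cell surface, the calcium release channels of the endoplasmic reticulum, and the pumps and exchangers that clear calcium from the cytosol. Members were taken by name from the array annotation: every gene whose probe set carries a single symbol beginning with Scn and a number, Cacna, Cacnb, Cacng, Atp2a, Atp2b, Atp2c or Slc8a, or equal to Itpr or Ryr with a number from 1 to 3. Of 52 such genes, 35 reached a mean intensity of 50 in at least 1 group and were kept, out of 10830 genes kept in all, and 17 stayed below that level. Each gene is represented by its probe set of highest mean over the 6 arrays.

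The RNA came from cortex of Glt25d2 bacTRAP mice of line DU9, bred from FVB onto C57BL/6 for 3 to 5 generations. In these mice the regulatory region of Glt25d2 (now Colgalt2), carried on a bacterial artificial chromosome, puts a tag on ribosomes of layer 5 pyramidal neurons, through which their RNA is pulled down (TRAP). Treated mice drank fluoxetine at 0.167 mg/ml in 1% saccharine and controls drank 1% saccharine alone, both for 15 to 18 days, and all mice carried the transgene. There were 3 arrays per treatment, numbered 1 to 3 in the titles, and how many mice went into an array is not stated, so p-values measure the spread between these preparations. In all 6 samples the title, source and treatment fields name 1 treatment and the description names the other. The names fluoxetine-titled and vehicle-titled follow the titles, and with the descriptions in their place each treatment difference would change sign.

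A layer 5 pyramidal cell fires when sodium channels open at the start of its axon, and each spike then opens calcium channels in the dendrites and terminals. Pore subunits (Scn1a to Scn11a, Cacna1 genes) form the channel, while beta, alpha2delta and gamma subunits set how much of it reaches the membrane and how it gates. Calcium that has entered is amplified by ryanodine and inositol trisphosphate receptors and removed by the endoplasmic reticulum pumps (Atp2a), plasma membrane pumps (Atp2b), Golgi pumps (Atp2c) and sodium-calcium exchangers (Slc8a).

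Values are intensities normalised by the authors with GCRMA, on a linear scale. A difference is the mean log2 intensity of the fluoxetine-titled arrays minus that of the vehicle-titled arrays, given with its standard error from limma. Each probe set has its own affinity, so intensities are compared between arrays and never between genes. On each array between 41.4% and 41.8% of probe sets read 50 or more. All 8 markers listed for subcortically projecting cells of layer 5 were kept, and Colgalt2 itself had intensities of 986, 709 and 719 against 891, 828 and 918. Markers of other cells were also present: every one of 13 astrocyte, 7 oligodendrocyte, 5 oligodendrocyte precursor and 8 interneuron markers with a probe set passed 50, as did 7 of 9 microglial (not P2ry12 or Tyrobp) and 5 of 8 vessel markers (not Pecam1, Flt1 or Kdr). Lower expression per cell and fewer cells of a type cannot be told apart in such RNA.

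No member passed the test between the titled treatments. In limma, 0 of 35 members passed an adjusted p of 0.05, against 0% of 10830 genes, and the smallest adjusted p among them was 1.000. At an unadjusted p under 0.05 limma gave 0 of 35 members, where 0.591% of all genes passed. With the replicate number as a block, 1 member, Cacna1b, had an unadjusted p under 0.05 (3.41% of all genes) and 0 passed the adjusted threshold. The median difference over the members was 0.014, against -0.0068 over all genes, with 21 members positive and 14 negative (47.8% of all genes were positive).

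The width of the intervals depended on whether the pairing was used. Without a block, the 95% interval of the difference lay within 2-fold in both directions for 32 of 35 members (96% of all genes) and within 1.5-fold for 18 of 35 (66% of all genes). The 3 members with wider intervals were Cacng4 (-1.01 to 0.76 on the log2 scale), Atp2b1 (-1.02 to 0.74) and Slc8a1 (-1.33 to 0.98). All 3 had a low intensity on both arrays numbered 1. With the replicate number as a block, 35 of 35 intervals lay within 2-fold (99.6% of all genes) and 33 of 35 within 1.5-fold (91.9%), those of Cacna2d2 (-0.14 to 0.74) and Cacng8 (-0.13 to 0.63) being wider. The blocked interval of Slc8a1 was -0.42 to 0.074.

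**Figure D1:**
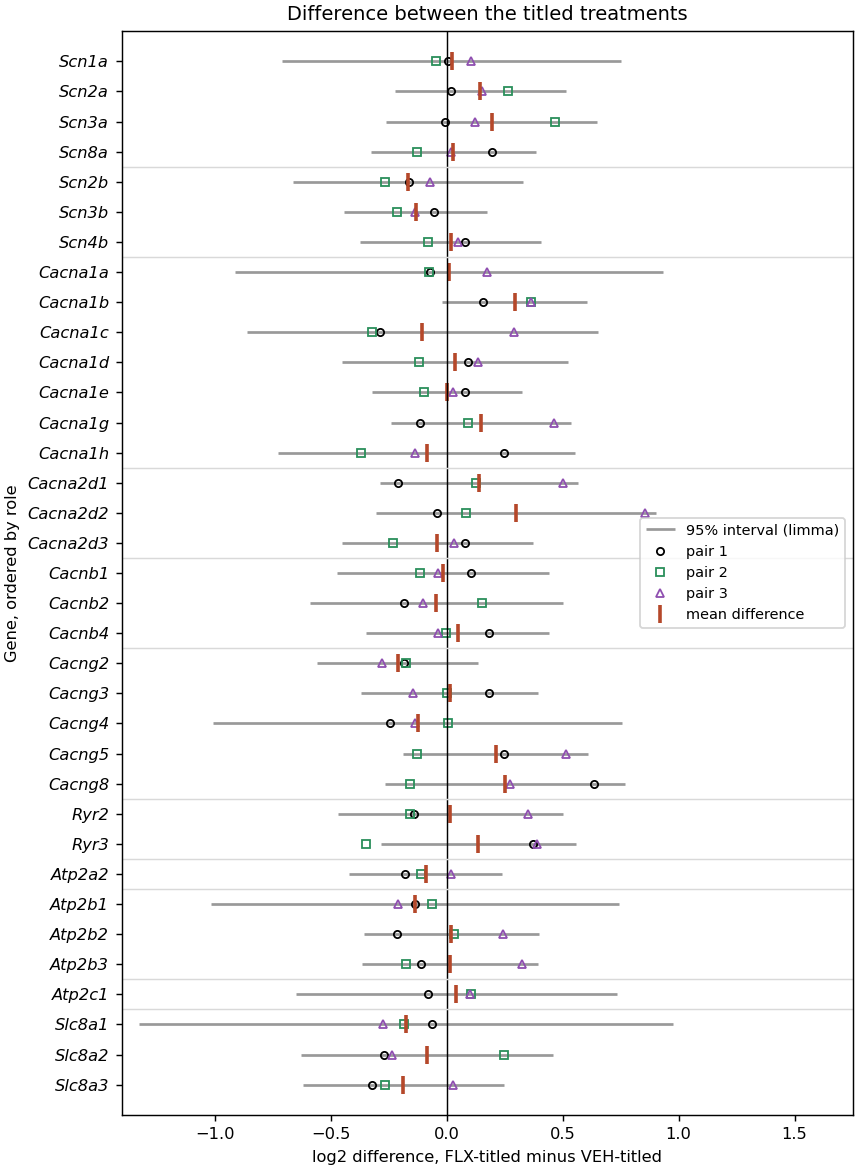
Difference between the titled treatments for the 35 genes kept, on the log2 scale (horizontal axis), with genes ordered by role (vertical axis). Red bars are mean differences, grey lines 95% intervals from limma without a block, and open symbols the difference within each pair of arrays that share a replicate number. Every interval contains 0, and Cacna1b has the interval that comes closest to leaving it out.

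Among all members, Cacna1b was the one whose groups did not overlap. Cacna1b codes for the N-type channel, which admits the calcium that triggers transmitter release at many terminals. Its intensity was 1366, 1446 and 1301 on the fluoxetine-titled arrays and 1226, 1124 and 1011 on the vehicle-titled arrays, or 1371 ± 72.5 and 1121 ± 108 (SD, n = 3 each). The lowest value under the fluoxetine title exceeded the highest under the vehicle title. This was 1 of 35 members without overlap, against 3.61% of all genes (1.63% with the fluoxetine-titled values on top and 1.98% with them beneath). The difference was 0.29 ± 0.13 with an interval of -0.018 to 0.61 without and 0.042 to 0.55 with the replicate block, and in pairs 1, 2 and 3 it was 0.16, 0.36 and 0.36. In limma the unadjusted p was 0.0613 (adjusted p = 1.000), and with the replicate block 0.0283 (adjusted p = 0.993). The gene has 2 further probe sets above 50, and these did not separate the groups. The second had 1135, 1245 and 1247 against 1184, 1090.3 and 918, a difference of 0.19 ± 0.14, and the third 362, 794 and 818 against 368, 897 and 674, a difference of 0.027 ± 0.42. The sign was positive in all 3 probe sets, and the groups overlapped in the other two. In the same comparison 13 of 13 astrocyte and 5 of 5 kept vessel markers had positive differences (47.8% of all genes), with medians of 0.24 and 0.40. In limma 0 of them passed the adjusted threshold. At an unadjusted p under 0.05 there were 0 astrocyte markers and 1 vessel marker (0.591% of all genes). With the block there were 3 vessel markers (3.41% of all genes). In pairs 1, 2 and 3 the medians were -0.055, -0.017 and 0.74 for the astrocyte markers and 0.36, 0.55 and 0.088 for the vessel markers. Of the 5 kept vessel markers 4 were positive in every pair (10.9% of all genes). For 2 of the 5 the groups did not overlap, with the fluoxetine-titled values on top (1.63% of all genes). The summed intensity of all 8 vessel markers, with those below 50 included, was 4315 to 5648 over the fluoxetine-titled and 3698 to 4876 over the vehicle-titled arrays. Most of this sum came from Slc2a1, whose difference was 0.11. The part of astrocytes and vessel cells in the Cacna1b values was not tested.

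The stretch upstream of Cacna1b is shown because this was the member without overlap, beside that of Scn2b, whose probe sets all had negative differences. Both are RefSeq sequences of build GRCm38.p6, read 5′ to 3′ on the gene's strand and ending just before the first annotated base of the gene: Cacna1b at chr2:24763201-24763402 on the minus strand and Scn2b at chr9:45117626-45117875 on the plus strand. The Cacna1b stretch is 202 bases long, the Scn2b stretch 250. Capitals mark the GC box GGGCGG, or its reverse complement CCGCCC, where present.
Cacna1b: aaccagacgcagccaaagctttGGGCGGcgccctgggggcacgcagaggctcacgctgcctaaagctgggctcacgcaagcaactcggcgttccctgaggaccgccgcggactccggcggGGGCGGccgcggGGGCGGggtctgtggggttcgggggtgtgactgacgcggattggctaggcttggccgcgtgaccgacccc
Scn2b: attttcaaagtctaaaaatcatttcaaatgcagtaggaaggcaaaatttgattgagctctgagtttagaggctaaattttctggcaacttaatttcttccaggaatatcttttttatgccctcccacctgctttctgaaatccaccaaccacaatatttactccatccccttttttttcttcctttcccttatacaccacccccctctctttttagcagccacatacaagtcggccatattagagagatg
The Cacna1b stretch holds 3 GC boxes and is 71.8% G or C, and the Scn2b stretch holds 0 and is 38.4% G or C. The 26 kept members found in the RefSeq promoter table have 40 windows of 250 bases before a start, and 16 of these (40%) hold a GC box on either strand, against 32.7% of 32851 windows of all genes. The letters TATAAA or, on the other strand, TTTATA stood in 5% of the members' windows and 12.4% of all. These matches describe the letters and were not tied to any difference between arrays.

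The other 6 calcium channel pore subunits kept had differences from -0.11 to 0.15, with overlap in each. The P/Q-type subunit Cacna1a had a difference of 0.0095 ± 0.39, the L-type subunits Cacna1c and Cacna1d -0.11 ± 0.32 and 0.036 ± 0.21, and the R-type subunit Cacna1e 0.0020 ± 0.14. The probe set of Cacna1d has the suffix that Affymetrix gives to sets that can match several transcripts. Cacna1g, a T-type subunit active near resting potential, had 97.9, 112 and 143 against 106, 105 and 104, and its highest value was that of fluoxetine array 3. The other T-type subunit kept, Cacna1h, had a difference of -0.086 ± 0.27, with pair differences of 0.25, -0.37 and -0.14 that changed sign. Cacna1i had no probe set of a single symbol and so was not covered. Cacna1f of the retina and Cacna1s of skeletal muscle stayed below 50.

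The alpha2delta subunits, which carry calcium channels to the membrane and bind gabapentin in the case of the first and second members, had positive differences in pair 3 in the probe sets of highest mean. Cacna2d2 had the largest difference of any member, 0.30 ± 0.26, and its values were 548, 842 and 999 on the fluoxetine-titled arrays and 565, 795 and 552 on the vehicle-titled arrays. That difference came from the third pair, since the pair differences were -0.044, 0.082 and 0.85 and without pair 3 the difference was 0.019. Cacna2d1 had pair differences of -0.21, 0.13 and 0.50 and Cacna2d3 of 0.081, -0.23 and 0.030. The other kept probe sets of Cacna2d1 had negative differences, -0.18 ± 0.19 and -0.088 ± 0.33, the former with -0.44 in pair 3, and their average with the first was -0.044. In the same pair the median difference of 13 astrocyte markers was 0.74, against -0.055 and -0.017 in pairs 1 and 2, and that of 8 interneuron markers was 0.40, against -0.10 and 0.038. The pair 3 medians of microglial, oligodendrocyte precursor and oligodendrocyte markers were 0.67, 0.55 and 0.54, and that of the layer 5 markers was -0.25. The summed intensity of the astrocyte markers ran from 52180.3 to 61427 over the fluoxetine-titled arrays and from 37677 to 63706 over the vehicle-titled ones, and that of the interneuron markers from 22898 to 28209.9 and from 19225 to 27445. The largest parts of these sums came from Clu and Gad1, with differences of 0.063 and 0.10. The part of cells other than layer 5 neurons in the Cacna2d2 values was not tested. Cacna2d3 had 2487, 2433 and 2026 against 2351, 2855 and 1985, with vehicle array 2 the highest. Cacna2d4 stayed below 50.

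Beta subunits bind the pore subunit from inside the cell and help it leave the endoplasmic reticulum. All 3 with a probe set, Cacnb1, Cacnb2 and Cacnb4, had differences close to 0: -0.016 ± 0.19, -0.044 ± 0.23 and 0.047 ± 0.17. Cacnb4 had 4801, 3634 and 3484 against 4235, 3639.9 and 3578. Both arrays numbered 1 read highest, in either treatment.

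Most genes named Cacng code for transmembrane AMPA receptor regulatory proteins (TARPs), which hold glutamate receptors at the synapse and act little on calcium channels. Cacng2, the gene of stargazin, had 323, 398 and 358 on the fluoxetine-titled arrays and 367, 449 and 434 on the vehicle-titled arrays. Its difference was -0.21 ± 0.15, with the same sign in each pair (-0.18, -0.17 and -0.28), while the groups overlapped because fluoxetine array 2 exceeded vehicle array 1. The other probe sets of Cacng2 had -0.22 ± 0.21 and -0.019 ± 0.19, both negative. Neither kept 1 sign over the pairs (0.15, -0.35 and -0.46, and 0.28, -0.36 and 0.019). Cacng8 and Cacng5 leaned the other way. Cacng8 had 110.1, 107 and 132 against 70.8, 119 and 109.7, a difference of 0.25 ± 0.22 that rested on a low vehicle array 1, and Cacng5 had 146, 135 and 142 against 122.6, 147 and 99.2, a difference of 0.21 ± 0.17 with vehicle array 3 the lowest. Both had the opposite sign in pair 2. Cacng3 had 875, 653 and 655 against 772, 653 and 724 and a difference of 0.013 ± 0.16. Cacng4 had a difference of -0.12 ± 0.37, and Cacng1, Cacng6 and Cacng7 had group means below 50. Cacng6 was the member just outside the limit, with group means of 48.9 and 42.0, and Ryr3 the one just inside it, with 72.0 and 66.2.

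The sodium channel pore subunits kept, Scn1a, Scn2a, Scn3a and Scn8a, all had positive differences in their probe sets of highest mean. Scn2a and Scn8a carry the spike of adult pyramidal axons, Scn1a is best known from fast-spiking interneurons, and Scn3a is mainly a gene of the developing brain. Scn2a had 4939, 5213 and 4180.0 on the fluoxetine-titled arrays and 4876, 4337 and 3759 on the vehicle-titled arrays. It was higher in the fluoxetine-titled array of every pair (0.018, 0.27 and 0.15), the groups overlapped, and the difference was 0.15 ± 0.16. Its 2 other probe sets were also higher in every pair, by 0.094 ± 0.20 and 0.10 ± 0.12, and in the dimmest of the 3 the groups did not overlap, with 178, 164 and 173 against 163, 159 and 155. Scn3a had 128, 165 and 108 against 128, 119 and 99.2, a difference of 0.19 ± 0.19 drawn by fluoxetine array 2. Scn8a and Scn1a had differences of 0.029 ± 0.15 and 0.022 ± 0.31. Averaging the kept probe sets of a gene turned both negative, to -0.0082 and -0.20. The other kept probe sets of Scn1a were lower in every pair, with differences of -0.43 ± 0.37 and -0.20 ± 0.28. Scn7a, Scn9a, Scn10a and Scn11a, known chiefly from glia (Scn7a) and peripheral sensory neurons, stayed below 50 on every array.

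The sodium channel beta subunits are adhesion proteins that join the pore subunit and shape its gating. Of the 3 kept, Scn2b and Scn3b had negative differences in all pairs. Scn2b had 5948, 3952 and 4519 on the fluoxetine-titled arrays and 6651, 4750.1 and 4753 on the vehicle-titled arrays, a difference of -0.17 ± 0.21 with pair differences of -0.16, -0.27 and -0.073. The groups overlapped, since both arrays numbered 1 were high. A second Scn2b probe set had 2394, 2918 and 3912 against 4371, 3870.4 and 4752 and a larger difference, -0.52 ± 0.20 (unadjusted p = 0.0359, adjusted p = 1.000 in limma). Here fluoxetine array 3 exceeded vehicle array 2 by little, and the third probe set had -0.24 ± 0.22. Scn3b had 1854, 1635 and 1570.0 against 1923, 1896 and 1723, with a difference of -0.13 ± 0.13 and pair differences of -0.052, -0.21 and -0.13. Scn4b, which gives the blocking particle of resurgent current, had 0.017 ± 0.17.

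Calcium release is represented by ryanodine receptors, which open in response to calcium itself. Ryr2 had 959, 1139 and 1594 against 1057, 1272 and 1252 and a difference of 0.016 ± 0.21, with fluoxetine array 3 the highest. Ryr3 had pair differences of 0.37, -0.35 and 0.39, and Ryr1, Itpr2 and Itpr3 stayed below the limit. Itpr1 had no probe set of a single symbol and so was not covered. Atp2a2, the endoplasmic reticulum pump of neurons, had 16398, 19959 and 18859.8 against 18596, 21519 and 18629 and a difference of -0.091 ± 0.14. Its other kept probe sets had 0.013 ± 0.15, 0.086 ± 0.25 and -0.15 ± 0.16. Atp2a1 and Atp2a3, pumps of skeletal muscle and of blood and epithelial cells, were not kept. Of the plasma membrane pumps, Atp2b2 and Atp2b3 had 0.020 ± 0.16 and 0.014 ± 0.16. A second, dimmer kept probe set of Atp2b3 had 179, 176 and 153 against 182, 186 and 180. Its difference was -0.11 ± 0.13, lower in every pair, and its groups did not overlap. Atp2b1 had 5742, 11877 and 11308 on the fluoxetine-titled arrays and 6305, 12418 and 13077 on the vehicle-titled arrays, with small negative differences in each pair (-0.14, -0.064 and -0.21) and both arrays numbered 1 far below the rest. The other kept probe sets of Atp2b1 had 0.012 ± 0.13 and -0.026 ± 0.13. Neither kept 1 sign over the pairs (0.047, 0.11 and -0.12, and -0.18, 0.069 and 0.030). The Golgi pump Atp2c1 had 1536, 1364 and 899 against 1623, 1269 and 839, a difference of 0.042 ± 0.29 in which arrays of equal number lay close together. Atp2b4 and Atp2c2 did not reach 50.

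The probe sets of highest mean of all 3 sodium-calcium exchangers had negative differences. Slc8a1 had 271, 676 and 629.6 on the fluoxetine-titled arrays and 283, 767 and 761 on the vehicle-titled arrays. Every pair had a negative difference (-0.065, -0.18 and -0.27), but the arrays numbered 1 stood far below the others, so the difference of -0.17 ± 0.49 had the widest error of any member. With the replicate block the standard error was 0.10 and the unadjusted p in limma 0.140. Slc8a3 had 397, 433 and 358 against 496, 520.0 and 352, a difference of -0.19 ± 0.18 with pair 3 near 0 (0.025). Slc8a2 had pair differences of -0.27, 0.25 and -0.24, with no common sign. Its second kept probe set had 0.15 ± 0.21, and the average of both was 0.034.

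In all, 7 of 35 members kept 1 sign in all 3 pairs, against 24% of all genes. Scn2a and Cacna1b were higher (10.9% of all genes were) and Scn2b, Scn3b, Cacng2, Atp2b1 and Slc8a1 lower (13.1%). These signs are those of the probe set of highest mean, and other kept probe sets of a gene did not always share them. The share of the members, 20%, was near that of all genes.

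**Figure D2:**
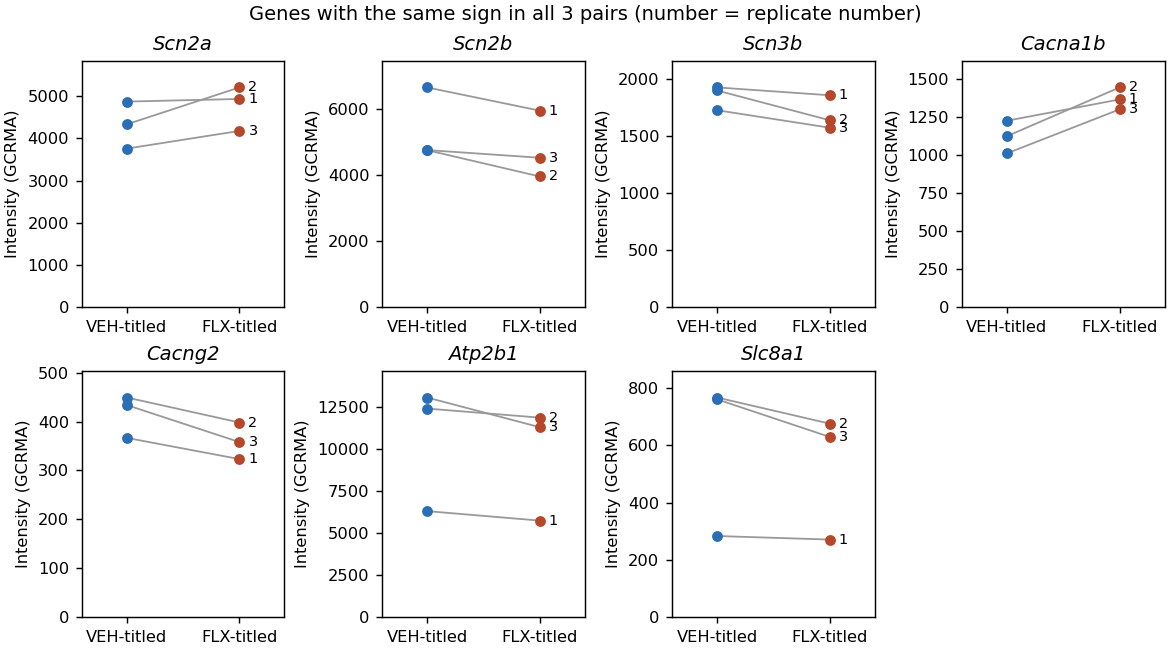
Intensity of the 7 genes with 1 sign in all 3 pairs (vertical axis, linear and starting at 0) in vehicle-titled (blue) and fluoxetine-titled (red) arrays, with lines joining arrays of equal replicate number. Cacna1b is the gene whose red points, from 1301 to 1446, all lie above its blue points, and the pair numbered 1 lies far below the others for Atp2b1 and Slc8a1.

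Replicate number accounted for more of the spread of these genes than treatment did. The replicate number, which has 2 degrees of freedom, held a median of 79.0% of a member's sum of squares on the log2 scale, and the titled treatment, with 1, a median of 1.82%. Over all genes the medians were 70.2% and 5.35%. The number held the larger share in 32 of 35 members and in 9698 of all 10830 genes. The exceptions among the members were Cacna1b, Cacng5 and Ryr3. What a number stands for is not stated in the labels. For 19 of 35 members both arrays numbered 1 lay outside all 4 others, against 44.3% of all genes. They were higher in 7 members (24.4% of all genes) and lower in 12 (19.9%).

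The largest such gap was that of Slc8a1, where the mean log2 intensity of the arrays numbered 1 minus that of the others was -1.35. Cacna1a had 211, 429.8 and 487 against 221, 453 and 432, a gap of -1.06. Atp2b1 had a gap of -1.01 and Cacng4, with 80.5, 189 and 154 against 95.4, 188 and 169, one of -0.99. The 4 calcium channel pore subunits Cacna1a, Cacna1c, Cacna1d and Cacna1h were all lower on both arrays numbered 1. In the other direction Scn1a had 2762, 1716 and 1512 against 2751, 1772 and 1405, a gap of 0.79, followed by Atp2c1 with 0.56 and Cacnb2 with 0.55.

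**Figure D3:**
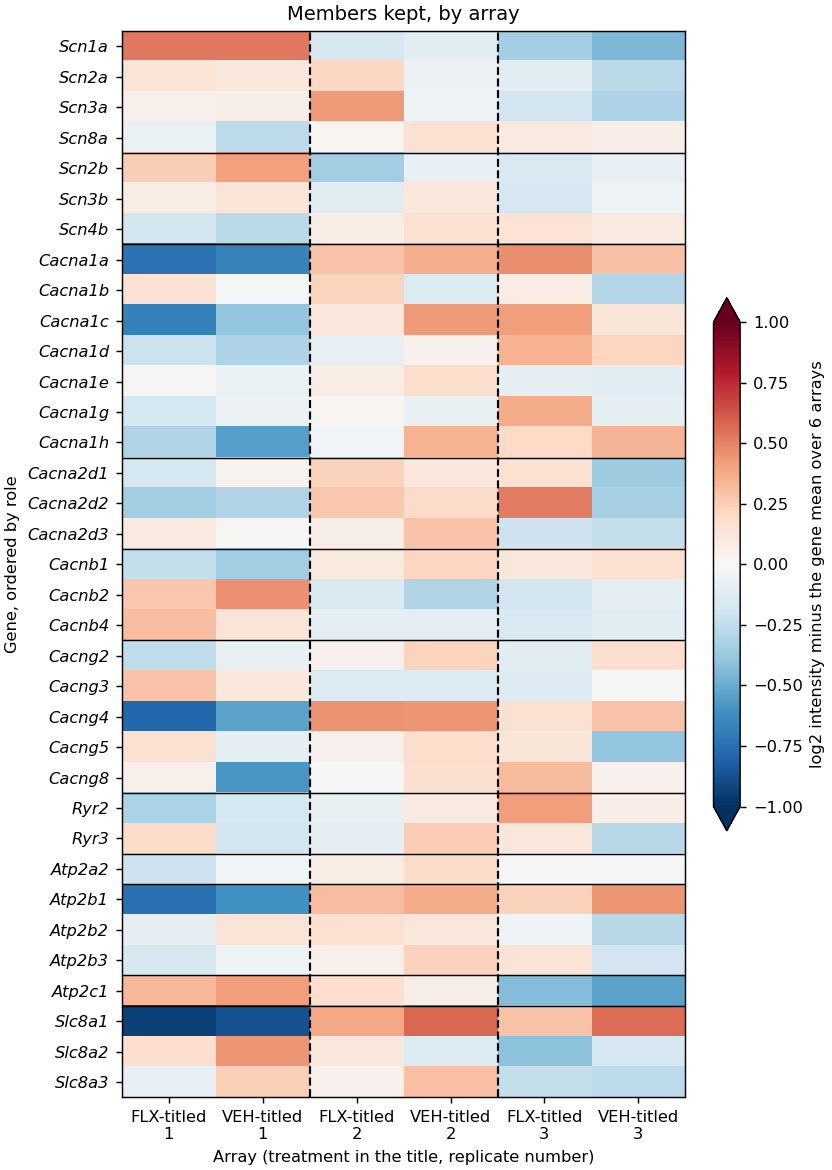
Log2 intensity of each of the 35 genes kept minus its mean over the 6 arrays (colour, red above and blue below the mean), by array, with arrays of equal replicate number side by side between dashed lines and solid lines between roles. The columns numbered 1 resemble each other in both treatments, with Slc8a1, Atp2b1, Cacng4 and Cacna1a low and Scn1a high.

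Probe sets of the same gene differed in this gap. Of 19 members with more than 1 probe set above 50, 10 had gaps of both signs, which is 52.6%, against 46.8% of 4406 such genes in all. In 6 of the 19 the probe sets were spread over more than 1 on the log2 scale (31.6%, against 11.9% of all such genes). For Scn1a the probe set of highest mean had a gap of 0.79 and the others -0.91 and -0.70, so the same gene stood higher or lower on the arrays numbered 1 depending on the probe set read. Cacnb4 had 0.33, 0.060 and -1.76, the last from intensities of 312, 965 and 1188 against 339, 1177 and 1084. For Slc8a1 the second probe set had 257, 237 and 256 against 306, 299 and 227, a gap of 0.15, and for Atp2b1 the others had gaps of -0.14 and -0.16. Cacna1a, Cacna1c and Cacnb2 each had the same sign in both of their probe sets. The treatment difference had the smaller spread between probe sets in log2 units, with a median within a gene of 0.14. For the gap between numbers it was 0.50, and over all such genes the values were 0.14 and 0.35. The treatment differences were also smaller in size. Over all members kept, the median absolute treatment difference was 0.091 and the median absolute gap 0.33, so each spread exceeded the matching median. The treatment difference was not the more uniform in sign, since its signs differed between probe sets in 10 of the 19 genes, as for the gap. The sign of the treatment difference was shared by all kept probe sets in 9 of the 19 genes, Scn2a, Scn2b, Cacna1a, Cacna1b, Cacna1c, Cacnb2, Cacng2, Atp2b2 and Slc8a1.

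**Figure D4:**
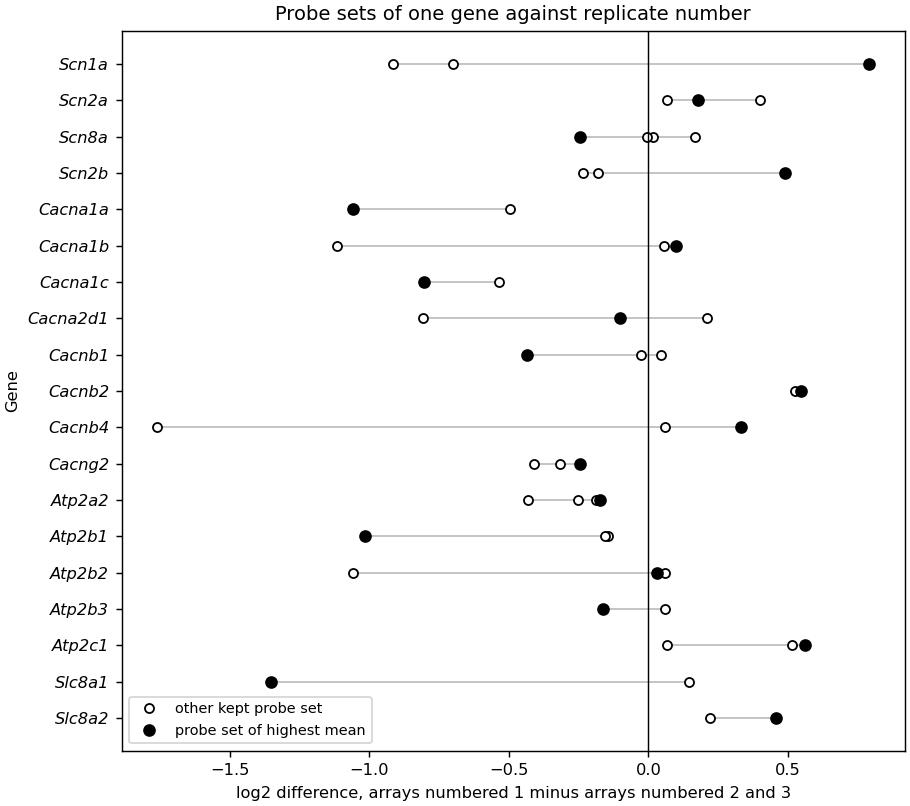
Mean log2 intensity of both arrays numbered 1 minus that of the 4 arrays numbered 2 and 3 (horizontal axis), for each kept probe set of the 19 genes that have more than 1 (vertical axis). Filled points are the probe sets of highest mean and open points the others. Points of Scn1a, Cacnb4, Slc8a1, Cacna1b, Atp2b2 and Cacna2d1 lie more than 1 apart.

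Partners of these channels and pumps were taken as a list of 40 calcium-dependent enzymes, buffers and sensors, store-operated and leak channels, other exchangers, pump regulators and sodium channel scaffolds. Of 36 with a probe set 32 were kept, and 0 passed an adjusted or unadjusted p of 0.05 in limma in either direction (0% and 0.591% of all genes); with the replicate block 0 passed the adjusted threshold and 1, Pvalb, had an unadjusted p under 0.05 (3.41% of all genes). There were 18 positive differences, 14 negative ones and a median of 0.015. Ppp3cb, a catalytic subunit of the calcium-dependent phosphatase calcineurin, was the gene of the list without overlap (1 of 32, against 3.61% of all genes), with 19752, 19496 and 18895 against 22417, 23798 and 20754 and a difference of -0.20 ± 0.12. Pvalb, the calcium buffer of fast-spiking interneurons, had 2133, 1429.8 and 1653 against 2423, 1899 and 2062 and pair differences of -0.18, -0.41 and -0.32. Ank3, the ankyrin that anchors sodium channels at the axon initial segment, was the 1 gene of the list positive in every pair (10.9% of all genes), with 1103, 1442 and 1525 against 1053, 1098 and 1303. The 5 negative in every pair (13.1%) were Camk2a, Ppp3cb, Ppp3r1, Pvalb and Stim1. Orai2, Slc8b1, Pln and Sln did not reach 50.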

How the data were processed

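The table holds 6 Affymetrix arrays of TRAP RNA, 15 ng per sample amplified in 2 cycles per the labels' protocols. Each array's deposited intensities, a value for every probe set, were summarised with GCRMA, as the submitters' processing notes name; its version is not given here. Values were read as linear intensities, and log2 was taken here. Of 45101 probe sets, 64 controls were left out and 19073 with a group mean of at least 50 were fitted in limma 3.58.1 (R 4.3.3; lmFit, eBayes), with two-sided p-values adjusted over all of them by Benjamini-Hochberg. The code was tested on simulated data. Entrez identifiers of all 52 genes matched RefSeq, which changed 0 symbols.

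Replicate numbers come from the titles. Deviations from the group mean correlated between same-numbered arrays (0.74, 0.60 and 0.50), so pairs were formed by number. Between arrays of different number and treatment these correlations ran from -0.59 to 0.26. In log2 values fluoxetine array 3 was as close to fluoxetine array 2 as to vehicle array 3 (0.991 each), so the pairing was less distinct there. The fit without a block is reported, and the blocked one beside counts that it moved. Standard errors after ± come from the fit without a block. Their median over the members was 0.18, against 0.11 with the block. The highest correlation of log2 values between arrays was 0.994, and by this measure no 2 arrays looked like 1 library. Probe sets with exactly equal values numbered 1136 to 2204 between 2 fluoxetine-titled arrays. They numbered 138 to 286 between 2 vehicle-titled arrays and 93 to 637 between arrays of different treatment. The cause of this inequality was not tested.

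Values on all arrays were given for members without overlap, with 1 sign in all pairs, among the 10 largest differences, or of highest mean in their role, and for a few others chosen after their values were seen. The gaps by replicate number and the probe set comparison were also added after the data were seen. The members and lists were chosen with earlier results of these data known.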

Additional observations from a re-analysis of the deposited data

How the results depend on the processing

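Under 15 alternatives limma called 0 probe sets and 0 members, and the number of arrays limits every difference. A replicate block cannot change the count of members without overlap (1), that with 1 sign in all pairs (7) or the median (0.014). The counts use no fit, and the numbers are balanced between treatments. The block changed no adjusted call. At an unadjusted p under 0.05 in limma it added Cacna1b, and it narrowed the intervals. With no filter on low values 3 of 52 genes had no overlap. They were Cacna1b and 2 genes below 50 on every array, Cacna2d4 (26.7 to 29.4) and Atp2a1 (4.72 to 5.05). Shares over all genes are not given for this count or for those with arrays left out, so these counts describe the members alone. With 1 array or 1 pair left out, the median over members ran from -0.016 to 0.099 (highest without fluoxetine array 1), the count without overlap from 2 to 11 (highest without pair 1) and the count with 1 sign in the remaining pairs from 14 to 19; fewer arrays raise both counts by construction, and leaving out 1 array leaves the replicate numbers unbalanced between treatments. The sign held under every alternative for 12 members: Scn2a, Scn2b, Scn3a, Scn3b, Cacna1b, Cacna2d2, Cacng2, Cacng5, Cacng8, Ryr3, Atp2a2 and Slc8a3. Among these Atp2a2 nevertheless had 2 kept probe sets of each sign. With a gene's kept probe sets averaged, the difference turned for Scn1a (-0.20), Scn8a (-0.0082), Cacna2d1 (-0.044), Cacnb1 (0.026), Cacnb4 (-0.0041), Atp2b3 (-0.049) and Slc8a2 (0.034); the cause was not tested. With arrays left out, differences that changed sign ran Atp2b1 -0.47 to 0.20, Atp2b2 -0.11 to 0.14, Atp2b3 -0.14 to 0.13, Atp2c1 -0.22 to 0.27, Cacna1a -0.32 to 0.38, Cacna1c -0.34 to 0.21, Cacna1d -0.13 to 0.15, Cacna1e -0.056 to 0.091, Cacna1g -0.010 to 0.28, Cacna1h -0.38 to 0.064, Cacna2d1 -0.042 to 0.31, Cacna2d3 -0.17 to 0.094; Cacnb1 -0.19 to 0.10, Cacnb2 -0.20 to 0.17, Cacnb4 -0.10 to 0.13, Cacng3 -0.13 to 0.091, Cacng4 -0.43 to 0.24, Ryr2 -0.19 to 0.18, Scn1a -0.24 to 0.29, Scn4b -0.11 to 0.11, Scn8a -0.093 to 0.11, Slc8a1 -0.65 to 0.25, Slc8a2 -0.25 to 0.11.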
